A study of Mus musculus with 12 samples.

Results

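The inner exon bins of moderately expressed genes are the segments of a gene that lie neither at its lowest nor at its highest bin number, in genes of intermediate read count in mouse embryonic stem (ES) cells. An exon bin is a piece of a gene's exons, cut wherever an exon of any annotated transcript begins or ends, and the share of the gene's reads that falls in a bin is called its use. The bins were chosen by their measured levels: a gene with 1 Ensembl identifier and at least 3 bins, a parental mean from 500 to under 5000 normalized counts in the Tet1kd gene table, and a mean of at least 20 normalized counts for the bin in both exon tables. Of 366995 bins in each exon table, 55698 (15.2%) met the rule, and they lay in 5643 host genes. The 5709 genes that met the conditions on the gene held 113592 inner bins, of which 57894 had a mean bin count under 20 in at least 1 table. A host gene had from 1 to 54 of these bins, with a median of 8.

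The cells were of V6.5, a mouse ES cell line, grown with serum and the cytokine LIF, and each of the 3 groups was labelled with 4 biological replicates. Parental cells had no knockdown. Tet1kd cells carried a stably integrated pSUPER-puro plasmid that makes a short hairpin RNA against Tet1, and Tet2kd cells carried the same kind of plasmid against Tet2. The knockdown lines were picked as single clones after electroporation and puromycin selection on SNL76/7-4 feeder cells, and the sources used here do not say how many clones gave the 4 libraries of a group. Cells with a control hairpin are not among the samples used here, so effects of the depletion, of the hairpin vector, of selection and of clone choice cannot be told apart. The p-values cover only the spread between these libraries. Poly(A) RNA was selected in 2 rounds and made into libraries for SOLiD sequencing, and the 4 parental libraries served as the controls of both knockdowns.

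Tet1 and Tet2 oxidize 5-methylcytosine in DNA to 5-hydroxymethylcytosine, a base found at promoters and along the bodies of transcribed genes. Most mammalian genes make several transcripts: a cassette exon can be included or skipped, an exon can begin or end at another splice site, and a promoter or a poly(A) site inside the gene can start or end the transcript early. An inner bin reads the first 2 of these choices directly, and it also takes part in the third, because a new start or end changes the reads of every bin on 1 side of it. Splicing factors of the SR and hnRNP families often carry alternative exons themselves, and ES cells are known for isoforms of transcription factors and chromatin proteins that differ from those of differentiated cells.

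Values behind the choice are given here as a description. The median mean bin count was 65.4 in the Tet1kd table and 58.8 in the Tet2kd table, and the bins ranged from 20.003 to 13801 and from 20.002 to 4412. The median bin held 40.1 of every 1000 parental reads of its gene in the Tet1kd table and 39.9 in the Tet2kd table. Next to the lower limit of the gene mean lay Ercc4 (499.99) and Ccdc66 (499.8) outside, and Smox (500.06) and Fbxl12 (500.2) inside. Next to the upper limit lay Faf1 (4999.9) and Rps6ka1 (4997) inside, and Psmb7 (5000.5) and Piezo1 (5001) outside. At the limit of the bin count, bin 11 of Zranb1 and bin 23 of Tmem87b had 19.9998 and 19.9994 counts and stayed out, while bin 7 of Slc30a7 had 20.0027 and entered.

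The exon tables give 1 mean per bin over the 8 libraries of a comparison, a ratio of use and a dispersion, so values per library and their standard deviations cannot be given. The dispersion is the test's own measure of spread between libraries beyond counting error, on the scale of a squared coefficient of variation. Depth is shown as the sum of the group means over genes, which was 22.7 M normalized counts in parental and 21.9 M in Tet1kd cells in the first gene table, and 20.9 and 20.7 M in the Tet2kd table. The mean of each group in a bin was worked out from the bin mean, the gene means and the deposited ratio of use. The deposited log2 ratio had to be multiplied by 2 for the parental means of a bin to match between the tables: at that factor 99.3% of the bins matched within 5%, after the scale of the tables (a factor of 1.09) was taken out. Use is therefore given below as a percentage of parental use from the doubled ratio, and group means of bins are derived values in the same sense. The sources used here do not say whether reads were counted by strand, so reads of overlapping antisense genes could be included in a bin. Bins are numbered along the genome, so the place of a bin from the 5′ end of its gene was taken from the gene's strand in GENCODE M21, which was known for 5625 host genes.

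The targeted genes and the cell markers were checked in the gene tables. Tet1 kept 25.2% of its parental mean in Tet1kd cells (adjusted p = 1.19e-68 in the authors' deposited table) and Tet2 kept 50.9% in Tet2kd cells (adjusted p = 3.08e-30 in the authors' deposited table); both lie above the limit of 5000 and are not host genes. All 10 ES cell markers of the list used were detected in every group, and their summed mean went from 116323 normalized counts in parental to 139982 in Tet1kd cells, and from 106813 in parental to 106178 in Tet2kd cells. All 30 feeder fibroblast markers had a mean above 0 in every group. The lowest mean among them was only 0.414 normalized counts in Tet1kd cells, against 12.8 in parental cells. Of the feeder markers, 4 rose and 20 fell in Tet1kd cells and 6 rose and 4 fell in Tet2kd cells, while their summed mean went from 67198 in parental to 85101 in Tet1kd cells, and from 61707 in parental to 77289 in Tet2kd cells. The most abundant feeder marker was at 49508 in parental and 70438 in Tet1kd cells. Only 8 feeder markers were host genes. In bulk RNA fewer cells of a type and less RNA per cell cannot be told apart, and the part of the feeder cells in the results was not tested. Without the host genes of the feeder list the counts of called bins given next were 1650 and 1671, against 1650 and 1675 with them.

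The first comparison asked which inner bins were used differently when Tet1 was depleted. At an adjusted p of 0.05 in the authors' deposited table, 1650 of 54874 tested bins changed (3.01%), against 2.56% of all 195843 bins tested in that table. Higher use in Tet1kd cells was found for 650 bins (1.18%, against 1.15% of all bins) and lower use for 1000 (1.82%, against 1.41% of all bins). The share with higher use was thus close to the background. The tested inner bins are deeper than that background, with a median bin mean of 66.0 against 19.8 over all bins tested. The part of depth in these differences was not tested. The changed bins lay in 1195 of 5613 host genes with a tested bin (21.3%). This was close to the share over all bins, where 20.9% of 14055 genes or merged genes had a changed bin. The median deposited log2 ratio of use over the inner bins was -0.01, as it was over all bins. The other 824 bins had no p-value, and 822 of those lay in genes of over 70 bins.

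In Tet2kd cells 1675 of 54932 tested inner bins changed in the authors' deposited table (3.05%, against 2.45% of all 193091 bins tested there). Of these, 586 had higher use (1.07%, against a background also at 1.07) and 1089 had lower use (1.98%, against 1.38% of all bins). The median bin mean was 59.3 for the tested inner bins and 18.4 for all bins tested, and the part of depth in these differences was not tested. The changed bins lay in 1221 of 5615 host genes (21.7%), against 20.1% of 13939 genes or merged genes over all bins. Because both comparisons use the same parental libraries, their counts are set side by side and are not independent. At an unadjusted p of 0.05 the authors' deposited table would call 8924 inner bins in Tet1kd and 8868 in Tet2kd cells.

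Most changes were of moderate size. The 650 bins with higher use in Tet1kd cells had a median of 143% of parental use, from 107% to 401%, and 62 of them reached 2-fold. The 1000 bins with lower use had a median of 61.0%, from 10.5% to 93.4%, and 244 of them were at 50% or less. In Tet2kd cells the medians were 138% for the higher bins (up to 290%, with 35 at 2-fold or more) and 62.9% for the lower bins (down to 19.4%, with 223 at 50% or less). In reads, the median lower bin went from 60.4 to 37.0 per 1000 reads of its gene in Tet1kd cells, and from 67.2 to 41.3 in Tet2kd cells.

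A changed bin usually stood alone in its gene. Of the 1195 host genes with a change in Tet1kd cells, 895 had 1 changed inner bin, 213 had 2 and 87 had more. In Tet2kd cells 915 of 1221 had 1, 213 had 2 and 93 had more. The most bins in 1 gene were 10 of Luc7l2 in Tet1kd and 9 of Rsrp1 in Tet2kd cells. Both encode proteins with arginine- and serine-rich stretches, and Luc7l2 is a component of the U1 snRNP, the particle that recognizes the 5′ splice site. Genes with bins in both directions numbered 226 in Tet1kd and 230 in Tet2kd cells. In 171 and 183 of them, respectively, the bins with higher use lay nearer the 3′ end.

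Use shifted with the position of the bin. In both comparisons the bins near the 5′ end of their gene were used less than in parental cells, and those near the 3′ end were used more. Positions were split into 10 equal classes. In the class nearest the 5′ end the median bin had 94.6% of parental use in Tet1kd and 94.5% in Tet2kd cells. The median rose with almost every class and reached 103.8% and 104.3% in the class nearest the 3′ end. The median deposited log2 ratio of bins in the 20% of positions nearest the 3′ end was 0.06 above that in the 20% nearest the 5′ end in both tables. Among genes with at least 10 tested bins with a strand, use and position rose together (a rank correlation above 0) in 1589 of 2303 genes in Tet1kd and 1648 of 2305 in Tet2kd cells. These shifts are described without a test, and both rest on the same parental libraries.

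**Figure D1:**
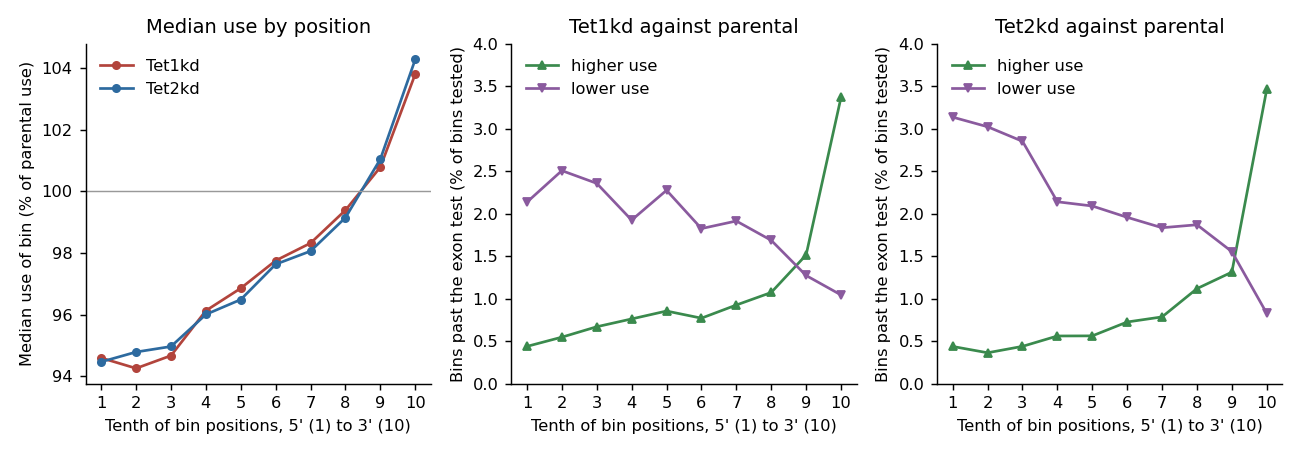
Inner bins split into 10 classes of position from the 5′ end (1) to the 3′ end (10) of the gene, with the median use in percent of parental use (left) and the share of tested bins past the authors' exon test with higher or lower use in Tet1kd (middle) and Tet2kd cells (right). The median climbs from about 94% to 104% of parental use in both, and the share with higher use is largest in class 10.

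The calls followed the same order. In Tet1kd cells 0.440% of tested bins in the 5′-most class had higher use and 2.14% lower use, while in the 3′-most class 3.37% had higher and 1.05% lower use. In Tet2kd cells the shares were 0.439% higher and 3.14% lower at the 5′ end, and 3.47% higher and 0.829% lower at the 3′ end. The bins at the 3′ end are also deeper: the median bin mean rose from 51.1 to 118.8 in the Tet1kd table and from 45.7 to 106.7 in the Tet2kd table. These values describe how reads were spread along genes, and the parts of transcript choice, depth and library coverage in the shift were not tested. Among bins with a mean of at least 100, among host genes with at least 10 inner bins, among host genes whose own level did not change, and among bins past no threshold, the difference between these ends kept its direction and lay between 0.05 and 0.07.

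The last 3′ bins of the same genes, which the rule leaves out, were mostly used more. Of 3613 last 3′ bins tested in the Tet1kd table, 6.75% had higher and 1.66% lower use, and for Tet2kd 8.05% of 3616 had higher and 0.747% lower use. Of 875 first 5′ bins, 1.26% had higher and 2.97% lower use in Tet1kd cells, and 0.914% and 2.97% in Tet2kd cells. The median deposited log2 ratio of these first bins was 0.01 in Tet1kd and -0.01 in Tet2kd cells. For the inner bins of the 5′-most position class it was -0.04 in both. These sets do not cover the same genes. The first bins, kept only with a mean count of at least 20, came from 875 genes. The inner bins of that class came from 1212 genes in Tet1kd and 1213 in Tet2kd. Inner bins of genes at or above the upper limit showed the same climb, from a median of 95.3% to 104.4% of parental use in Tet1kd and from 92.7% to 106.0% in Tet2kd cells. No test was made of the differences between these sets.

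The share of bins called also rose with read depth. From the shallowest to the deepest of 4 equal classes of mean bin count, 1.52%, 2.07%, 2.84% and 5.55% of tested inner bins changed in Tet1kd cells, and 1.07%, 1.61%, 2.99% and 6.47% in Tet2kd cells. The median deposited dispersion fell from 0.0595 in the lowest to 0.0104 in the highest class in the Tet1kd table, and from 0.0614 to 0.0104 in the Tet2kd table. Inner bins of the more highly expressed genes, with a median bin mean of 190.3 and 178.0, were called in 8.33% and 8.52%. The part of depth in differences of calls between these sets was not tested.

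The leading rise in Tet1kd cells was in Luc7l2 (ENSMUSG00000029823, chromosome 6). Its bin 21 of 39 went from 48.2 normalized counts in parental to 164 in Tet1kd cells, or 401% of parental use, with a deposited log2 ratio of 1.00 and an adjusted p listed as 0 in the authors' deposited table. In the Tet2kd table the same bin went from 43.5 to 74.3 counts, or 179% of parental use (adjusted p = 0.00623 in the authors' deposited table). The 4 adjacent bins 10 to 13 were at 247% to 346% of parental use in Tet1kd cells, all past the threshold, and at 139% to 194% in Tet2kd cells, where bins 10 and 11 passed. Bin 11, the deepest of these, rose from 251 to 526 counts in Tet1kd and from 226 to 303 in Tet2kd cells. The whole gene moved by -0.23 on the log2 scale in Tet1kd cells and did not pass the gene test (adjusted p = 0.0684 in the authors' deposited table). Nearer the 3′ end, bins 27, 33 and 34 of Luc7l2 had lower use in Tet1kd cells, at 45.8%, 68.8% and 80.6% of parental use.

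The chromatin gene Asxl2 and the RNA surveillance gene Zcchc7 came next. Asxl2 (ENSMUSG00000037486, chromosome 12) belongs to a family of Polycomb-associated proteins, and its bin 9 of 26 rose from 54.4 to 125 counts in Tet1kd cells, 312% of parental use, with an adjusted p listed as 0 in the authors' deposited table. Bin 20 of Zcchc7 (ENSMUSG00000035649, chromosome 4), a zinc-knuckle partner of the nuclear exosome, rose from 54.7 to 124 counts (300.4%), again with an adjusted p listed as 0 in the authors' deposited table. In both genes the rise of the bin went with a fall of the gene, by 0.44 in Asxl2 and 0.41 in Zcchc7 on the log2 scale. In Tet2kd cells these bins were at 167% and 161% of parental use (adjusted p = 0.0236 and adjusted p = 0.0303 in the authors' deposited table). The SUMO isopeptidase gene Uspl1 was among the leading rises of both tables: bin 13 was at 225% of parental use in Tet1kd cells, from 151 to 218 counts, and at 167% in Tet2kd cells, from 138 to 191 counts.

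Other leading rises in Tet1kd cells were smaller and lay in deeper bins. Bin 48 of Ccdc88a, which encodes the actin-binding protein girdin, went from 184 to 386 counts (171%), and bin 24 of Rsrp1 went from 493 to 535 counts (154%) while its gene fell by 0.51 on the log2 scale. Bin 2 of Wdtc1, which encodes a substrate receptor of a cullin ubiquitin ligase, went from 1397 to 1822 counts (123%); it is bin 26 of 27 counted from the 5′ end. The 10 leading rises ranged from 123% to 401% of parental use, and their deposited dispersions from 0.00214 to 0.0194. For Tet2kd 7 of the 10 bins passed the threshold, and all 10 were at 106% to 179% of parental use. Both comparisons share the parental libraries, so the Tet2kd values are not an independent check of these bins.

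**Figure D2:**
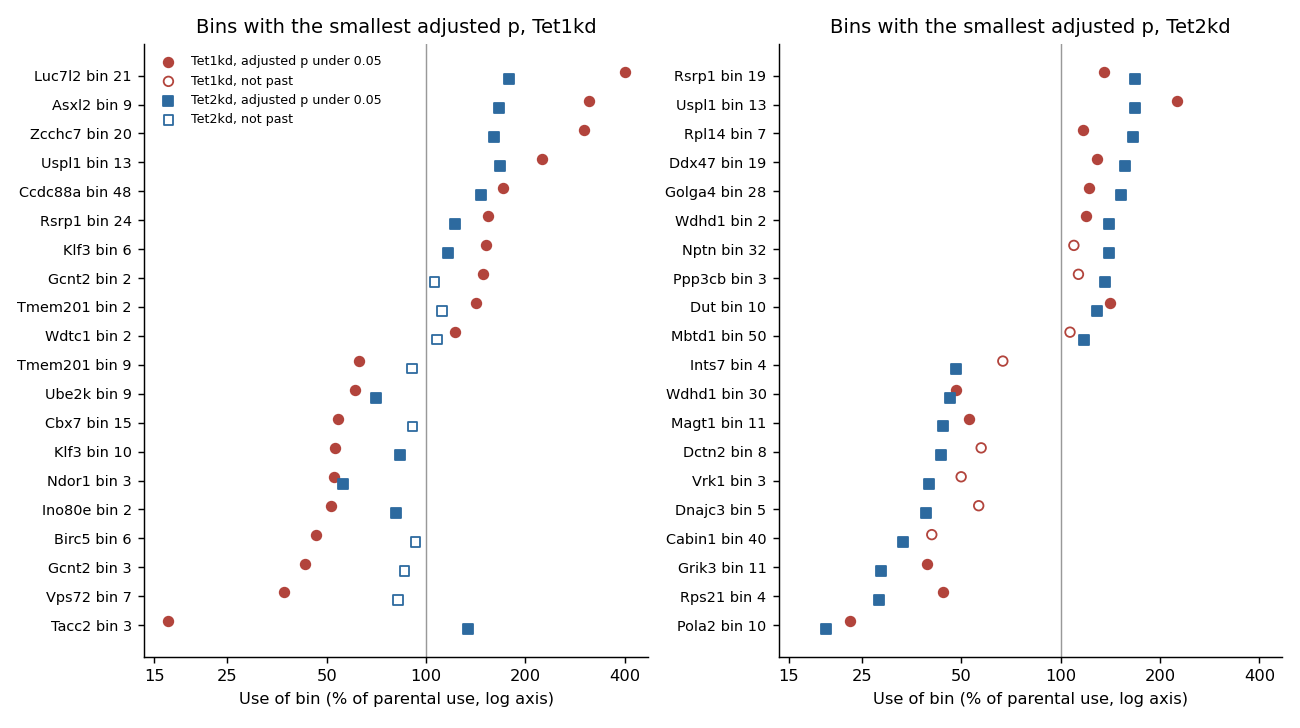
Use in percent of parental use (log axis) of the 10 bins with the smallest adjusted p in each direction, 1 bin per gene, for Tet1kd (left) and Tet2kd (right), with the value of both knockdowns beside each bin (circles Tet1kd, squares Tet2kd, filled where the adjusted p is under 0.05). Bin 3 of Tacc2 is at 16.5% in Tet1kd cells and above 100% in Tet2kd cells, while bin 10 of Pola2 is near 20% in both.

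The largest fall among the leading bins of Tet1kd cells was in Tacc2 (ENSMUSG00000030852, chromosome 7), which encodes a coiled-coil protein of the centrosome. Its bin 3 of 30 fell from 140.3 to 28.6 counts, 16.5% of parental use, with a deposited log2 ratio of -1.30 and an adjusted p listed as 0 in the authors' deposited table. The gene itself rose by 0.30 on the log2 scale in Tet1kd cells. In Tet2kd cells the same bin moved the other way, from 132 to 200.3 counts, 134% of parental use (adjusted p = 0.0293 in the authors' deposited table). The difference between the knockdowns was not tested.

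Subunits of chromatin complexes were among the other leading falls. Bin 7 of Vps72, a subunit of the complexes that place the histone variant H2A.Z, fell from 135 to 61.8 counts in Tet1kd cells (37.1%, adjusted p listed as 0 in the authors' deposited table), and was at 82.3% in Tet2kd cells (adjusted p = 0.588). Bin 15 of Cbx7, the chromodomain subunit of Polycomb repressive complex 1 in ES cells, fell from 426 to 247 counts (54.0%) and was at 91.1% in Tet2kd cells (adjusted p = 0.446 in the authors' deposited table). Bin 2 of Ino80e, a subunit of the INO80 remodeller, fell from 541 to 188 counts (51.4%), beside a fall of the gene by 0.56 on the log2 scale. This bin also fell in Tet2kd cells, to 81.2% (adjusted p = 0.00141 in the authors' deposited table). Bin 6 of Birc5, which encodes survivin of the chromosomal passenger complex, fell from 413 to 168 counts in Tet1kd cells (46.4%) and was at 92.8% in Tet2kd cells.

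Falls in 2 further genes passed in both knockdowns. Bin 3 of Ndor1, which encodes a reductase of iron-sulfur protein assembly, fell from 438 to 157 counts in Tet1kd cells (52.5%) and from 411 to 196 in Tet2kd cells (55.8%, adjusted p = 6.01e-05 in the authors' deposited table). Bin 9 of Ube2k, a ubiquitin-conjugating enzyme gene, fell from 493 to 356 counts (61.0%) and from 451 to 344 (70.6%, adjusted p = 4.94e-07 in the authors' deposited table).

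Some genes had a leading bin in each direction, and whether the rise and the fall were linked was not tested. In Gcnt2, which encodes the branching enzyme of the I blood group antigen and is known for alternative first exons, bin 2 of 5 rose from 292 to 566 counts in Tet1kd cells (149%, adjusted p = 6.18e-12 in the authors' deposited table). The neighbouring bin 3 fell from 449 to 252 counts (43.0%). In Tmem201, which encodes a protein of the inner nuclear membrane, bin 2 went from 480.5 to 681 counts (141%) and bin 9, nearer the 5′ end, from 674 to 423 (62.6%), with no change of the gene's level (0.00 on the log2 scale). In Tet2kd cells none of these 4 bins passed: the bins of Gcnt2 were at 106% and 85.9%, and those of Tmem201 at 112% and 90.8%.

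Klf3 (ENSMUSG00000029178, chromosome 5), a Krüppel-like transcriptional repressor, changed along its length in Tet1kd cells. Bins 6 and 7 of 11 had 152% and 147% of parental use, and the 3 adjacent bins 8, 9 and 10 had 60.4%, 70.04% and 52.8%. In counts, bin 6 went from 1123 to 2338 and bin 10 from 935 to 677. All 5 bins passed the threshold in the authors' deposited table. The gene rose by 0.45 on the log2 scale in Tet1kd cells and fell by 0.75 in Tet2kd cells, where bins 6 and 10 were at 117% and 83.1% (adjusted p = 0.00183 and adjusted p = 0.00128 in the authors' deposited table). Here the rise lay on the 5′ side and the fall on the 3′ side, against the order seen over all inner bins.

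**Figure D3:**
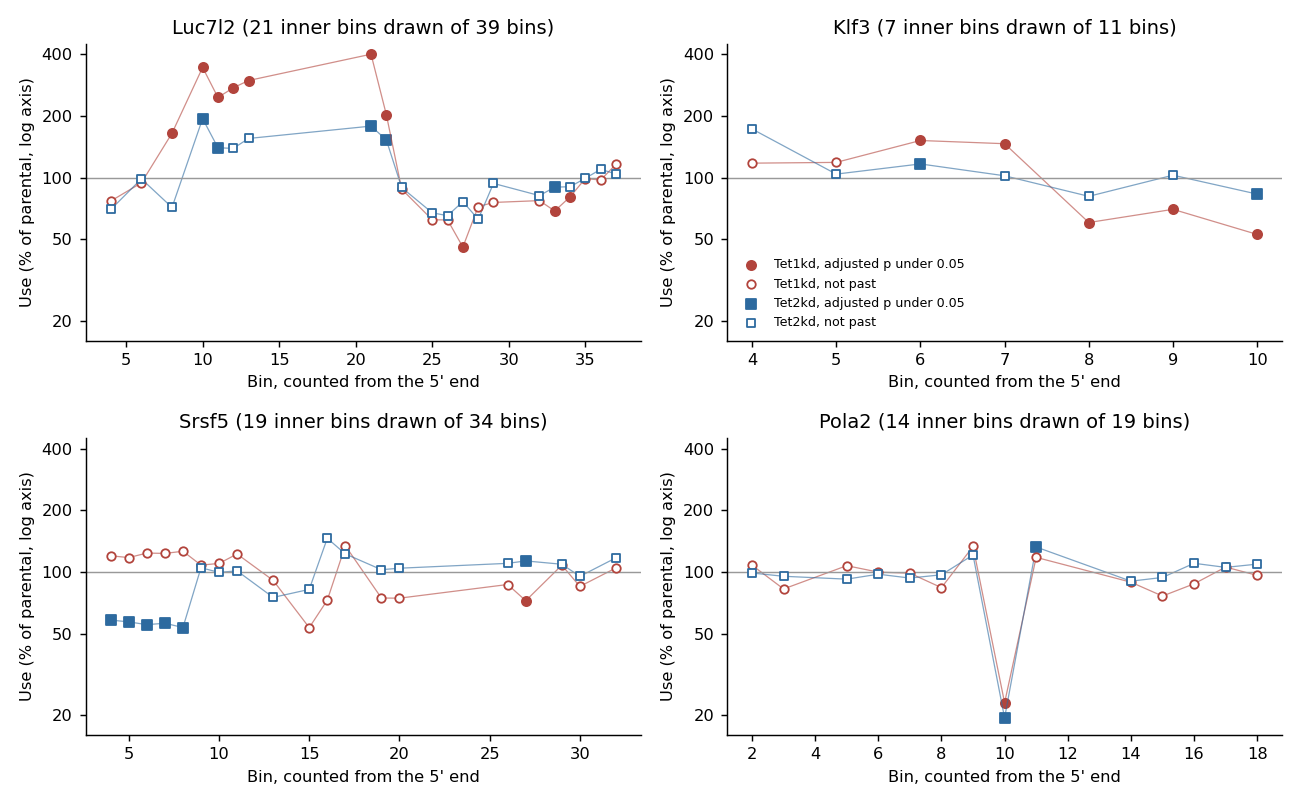
Use in percent of parental use (log axis) of the inner bins of Luc7l2, Klf3, Srsf5 and Pola2 by place from the 5′ end (circles Tet1kd, squares Tet2kd, filled where the adjusted p is under 0.05; lines join the bins that met the rule). Luc7l2 is raised over a block of bins, Klf3 changes from high to low between bins 7 and 8 in Tet1kd cells, Srsf5 is low over bins 4 to 8 in Tet2kd cells and above 100% there in Tet1kd cells, and Pola2 drops at bin 10.

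The second comparison asked the same of Tet2. The leading fall was bin 10 of Pola2 (ENSMUSG00000024833, chromosome 19), the gene of the regulatory subunit of DNA polymerase alpha. It fell from 399 to 75.4 counts in Tet2kd cells, 19.4% of parental use, with a deposited log2 ratio of -1.18 and an adjusted p listed as 0 in the authors' deposited table. In Tet1kd cells it fell from 442 to 106 counts, 22.9% of parental use (adjusted p = 0.00229 in the authors' deposited table). The bin on its 3′ side, bin 9, rose to 132% of parental use in Tet2kd cells, and the other inner bins of the gene lay between 90.1% and 121%. The gene's level had log2 fold changes of 0.06 and -0.04.

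Further leading falls in Tet2kd cells lay in genes of replication, transcription and transport. Bin 3 of Vrk1, the gene of a nuclear kinase of the cell cycle, fell from 936 to 208 counts (39.9%) while the gene fell by 0.85 on the log2 scale. Bin 30 of Wdhd1, a replication factor that ties DNA polymerase alpha to the helicase, fell from 339.8 to 135 counts (46.0%), and bin 2 of the same gene, near its 3′ end, rose from 434 to 527 counts (140.2%). Bin 8 of Dctn2, a dynactin subunit, fell from 488 to 174 counts (43.2%). Bin 4 of Ints7, an Integrator subunit, fell from 328 to 138 counts (48.2%). For each of these bins except bin 2 of Wdhd1 (adjusted p = 1.51e-07), the adjusted p was listed as 0 in the authors' deposited table.

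Leading falls in Tet2kd cells also lay in genes of membranes, signalling and protein folding. Bin 11 of Grik3, a kainate receptor gene, fell from 174 to 45.0 counts (28.5%), bin 40 of Cabin1, a calcineurin inhibitor gene, from 170.0 to 54.8 (33.2%), and bin 5 of Dnajc3, the gene of a co-chaperone of the endoplasmic reticulum, from 239 to 76.7 (39.0%). Bin 11 of Magt1, a magnesium transporter gene, fell from 539.5 to 181 counts (43.9%). Bin 4 of Rps21 fell from 194 to 62.1 counts (28.1%), but ribosomal protein genes have many processed copies in the genome that can share their reads, so this value is uncertain.

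The bins that fell most in Tet2kd cells were also low in the Tet1kd table, with a wider spread there. The 10 leading falls of Tet2kd cells were at 22.9% to 66.7% of parental use in Tet1kd cells, and 5 of them passed the threshold. In 9 of the 10, all but Rps21, the deposited dispersion was over 5 times as large in the Tet1kd table as in the Tet2kd table. For Vrk1 it was 0.179 against 0.00644, with 49.9% of parental use and no call in Tet1kd cells (adjusted p = 0.158 in the authors' deposited table), from 1102 to 356 counts. For Dctn2 it was 0.0804 against 0.00592, and for Dnajc3 0.147 against 0.0109. The same 4 parental libraries are in both tables, and the spread of these 9 bins was small in the Tet2kd table. These bins were picked by the smallest adjusted p in Tet2kd cells, which favours a small spread in that comparison. The source of their wider spread in the other comparison was not tested, because no values per library are given. Among the leading bins of the other 3 sets, no dispersion was over 5 times as large in the other table.

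**Figure D4:**
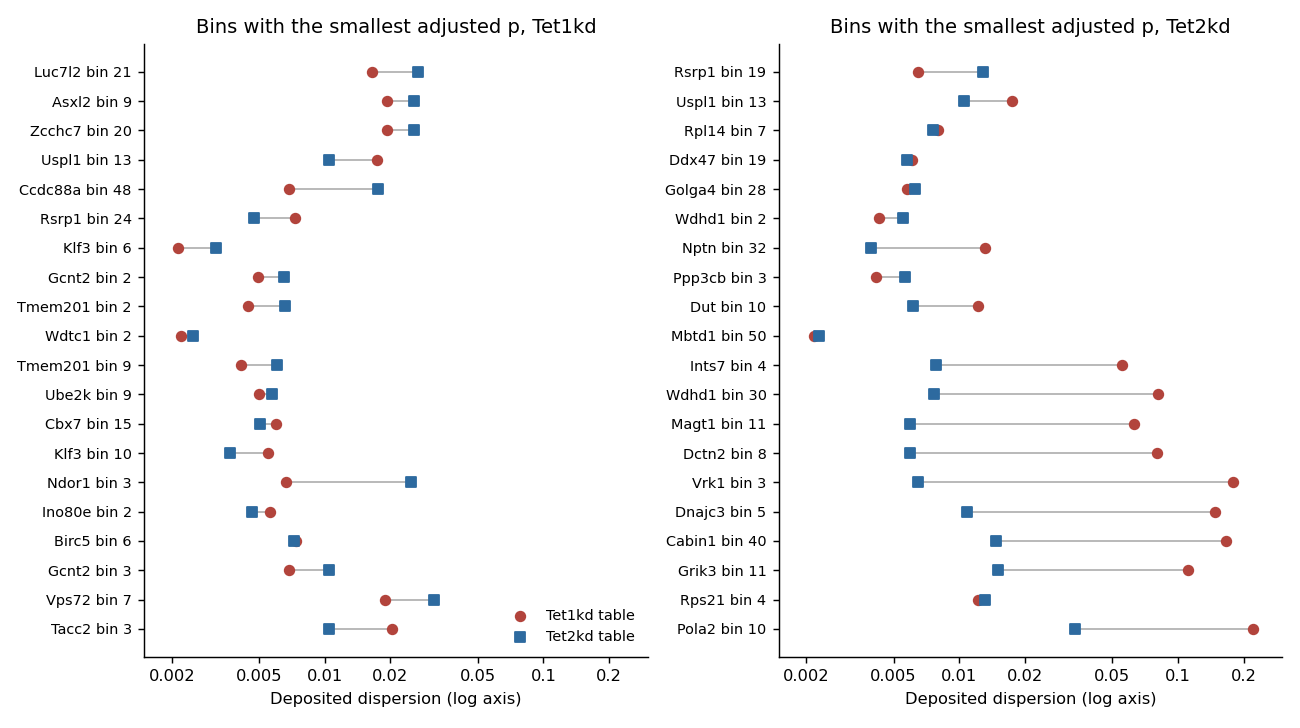
Deposited dispersion (log axis), the spread of a bin between libraries beyond counting error, of the leading bins of Tet1kd (left) and Tet2kd (right) in the Tet1kd table (circles) and the Tet2kd table (squares). The 9 bins from Ints7 to Grik3 and Pola2 at the lower right have dispersions from 0.0555 to 0.220 in the Tet1kd table and from 0.00592 to 0.0336 in the Tet2kd table.

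The leading rises in Tet2kd cells were smaller than the falls, from 118% to 168% of parental use. Bin 19 of Rsrp1 rose from 294 to 399 counts (168%, adjusted p = 1.08e-07 in the authors' deposited table), and bin 19 of Ddx47, an RNA helicase gene of ribosome biogenesis, from 311 to 378 counts (157%, adjusted p = 7.56e-11 in the authors' deposited table). Bin 28 of Golga4, a golgin gene, rose from 269 to 341 counts (152%), bin 32 of Nptn, the neuroplastin gene, from 560.4 to 613 (140.1%), and bin 3 of Ppp3cb, a calcineurin catalytic subunit gene, from 655 to 752 (136%). Bin 10 of Dut, the gene of the enzyme that clears dUTP, rose from 1333 to 1360.0 counts (129%) and rose in Tet1kd cells as well (141%, adjusted p = 1.06e-05 in the authors' deposited table). Bin 50 of Mbtd1, a gene of the Tip60 acetyltransferase complex, rose from 1491 to 1880.1 counts (118%). Bin 7 of Rpl14 had 166% of parental use with the same reservation about copies as Rps21. Of the 10 leading rises 6 lay in the 20% of positions nearest the 3′ end, and of the 10 leading falls 0 did. In Tet1kd cells 4 of the 10 leading rises and 3 of the 10 leading falls lay there. For scale, 13475 of the 54874 inner bins tested for Tet1kd lay in these positions. Of the 54932 tested for Tet2kd, 7456 lay in position class 9 and 6030 in class 10, nearest the 3′ end. The places of the leading bins were not tested against these numbers.

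Runs of adjacent changed bins were few. In Tet1kd cells 591 of the stretches with higher use and 887 of those with lower use were single bins, and in Tet2kd cells 534 and 916. The longest stretch was in Srsf5 (ENSMUSG00000021134, chromosome 12), an SR splicing factor whose own transcripts are alternatively spliced. Its 5 adjacent bins 4 to 8 of 34 were at 53.5% to 58.2% of parental use in Tet2kd cells, with adjusted p from 0.00208 to 0.00386 in the authors' deposited table. Bin 4 went from 96.8 to 53.1 counts and bin 8 from 76.2 to 38.5. In Tet1kd cells the same 5 bins were at 117% to 126% and none passed the threshold, with a smallest adjusted p of 0.289 in the authors' deposited table. Bin 27 of Srsf5 was lower in Tet1kd cells (72.3%, adjusted p = 9.7e-06) and higher in Tet2kd cells (113%, adjusted p = 0.00848) in the authors' deposited table, and this difference was not tested either.

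Other runs lay in Ppfibp1, Ddx47 and Ifrd1. In Ppfibp1, which encodes a liprin of cell adhesion sites, bins 22 to 25 of 51 fell to 48.8% to 68.4% of parental use in Tet1kd cells, and in Tet2kd cells they were at 35.0% to 64.0%, with bin 25 not past the threshold there (adjusted p = 0.0559 in the authors' deposited table). The gene rose by 0.51 on the log2 scale in Tet1kd cells. In Ddx47 the bins 14 to 17 fell to 47.9% to 72.1% of parental use in Tet2kd cells, on the 5′ side of the bin 19 that rose. In Ifrd1, the gene of a transcriptional co-regulator, bins 7 to 10 fell to 61.4% to 82.8% in Tet2kd cells. In Tet1kd cells these bins were at 62.3% to 82.7%, and bins 9 and 10 passed (adjusted p = 0.00025 and adjusted p = 0.0115 in the authors' deposited table).

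Gene lists were used to describe the calls by function, each as a count beside the background of all bins tested (2.56% in Tet1kd and 2.45% in Tet2kd). The listed bins all met the minimum bin count, which the background did not require. The median deposited log2 ratio of use lay between -0.03 and 0.00 in each of the 14 lists drawn, beside -0.01 over all bins. Among 14 host genes for SR and hnRNP splicing factors, 2 of 143 tested bins had higher and 5 lower use in Tet1kd cells (4.90%), and 2 had higher and 10 lower use in Tet2kd cells (8.39%). Srsf5 alone gave 5 of these 10 lower bins. Among 29 host genes for other splicing regulators and the spliceosome, 15 of 393 bins had higher and 8 lower use in Tet1kd cells (5.85%), and 15 and 10 in Tet2kd cells (6.36%). Luc7l2 alone had 10 of the 23 calls in Tet1kd cells. Its relative Luc7l3 had higher use of bin 5, from 282 to 244 counts in Tet1kd cells (149.9%, adjusted p = 3.82e-06 in the authors' deposited table), and its gene fell by 0.79 on the log2 scale. Luc7l, the third of the family, had lower use of bins 16 and 17 in both knockdowns: 54.8% and 58.6% in Tet1kd, 67.9% and 58.9% in Tet2kd cells. Srsf10, which can repress splicing, had 42.3% of parental use at bin 16 in Tet1kd cells (adjusted p = 0.00197 in the authors' deposited table), from 52.6 to 17.4 counts. Bin 11 of Prpf38b, a spliceosome gene, rose to 153% in Tet1kd cells (adjusted p = 6.41e-05 in the authors' deposited table).

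**Figure D5:**
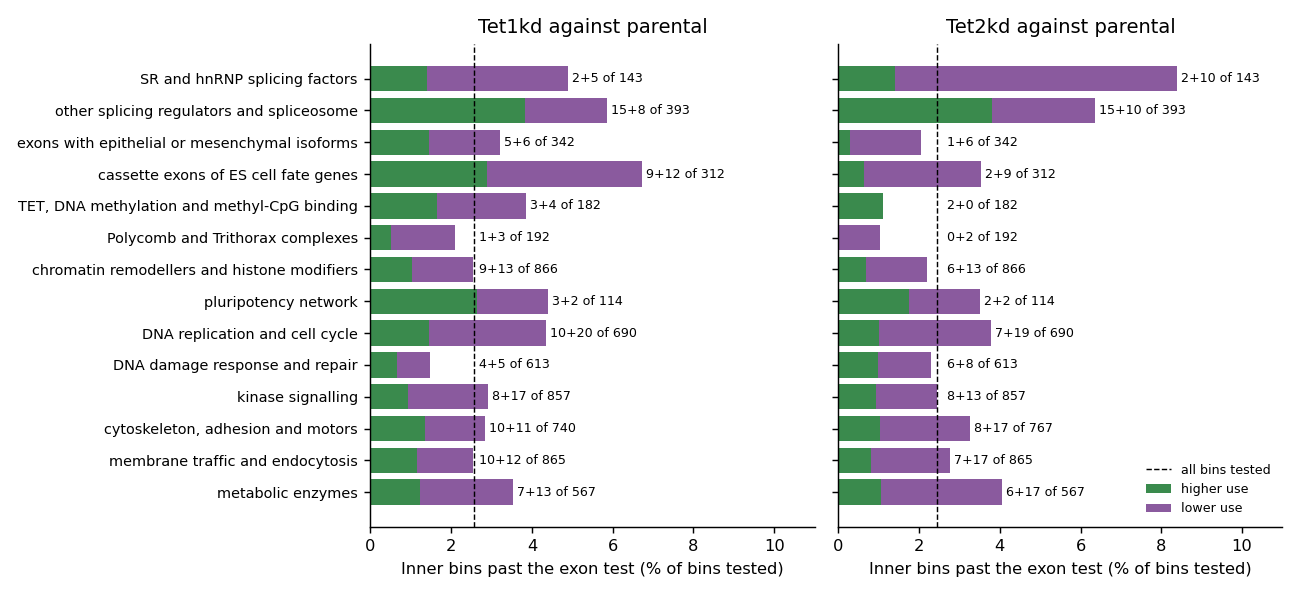
Share of tested inner bins past the authors' exon test (percent, higher and lower use stacked, with the counts beside each bar) in 14 gene lists for Tet1kd (left) and Tet2kd cells (right), with the share over all bins tested as a dashed line. The 2 splicing lists lie above the line in both panels. So do the lists of cassette exons, pluripotency, replication and cell cycle, cytoskeleton and metabolism. The line covers all bins tested, without the minimum bin count. Over the tested inner bins the share was 3.01% in Tet1kd and 3.05% in Tet2kd cells. The cytoskeleton list was below that share in Tet1kd cells (2.84%). The Polycomb and Trithorax, remodeller and repair lists lie below it in both panels.

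The genes of the DNA methylation pathway were described next. Among 17 host genes for TET proteins, DNA methylation and methyl-CpG binding, 3 of 182 tested bins had higher and 4 lower use in Tet1kd cells (3.85%), and 2 had higher and 0 lower use in Tet2kd cells (1.10%). Bin 62 of Dnmt3a, a de novo DNA methyltransferase gene, lies next to its 3′ end and was at 141% in Tet1kd and 125% in Tet2kd cells (adjusted p = 0.000229 and adjusted p = 0.0403 in the authors' deposited table). The gene fell by 0.80 and 0.25 on the log2 scale. Bin 23 of Dnmt3b, the other de novo enzyme, fell from 55.7 to 22.4 counts in Tet1kd cells (48.6%, adjusted p = 0.0157 in the authors' deposited table) and was at 56.5% in Tet2kd cells (adjusted p = 0.0728). Bin 9 of Mbd4, a glycosylase gene of base excision repair, was at 41.6% in Tet1kd cells (adjusted p = 0.0269 in the authors' deposited table).

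Chromatin genes were covered by a pair of lists. Among 18 host genes for Polycomb and Trithorax complexes, 1 of 192 bins had higher and 3 lower use in Tet1kd cells (2.08%), and 0 and 2 in Tet2kd cells (1.04%). Bin 24 of Men1, the gene of the MLL partner menin, was the largest fall of any inner bin called in Tet1kd cells, from 40.4 to 3.20 counts (10.5%, adjusted p = 2.28e-10 in the authors' deposited table), and was at 78.4% in Tet2kd cells (adjusted p = 0.645). Bin 17 of Pcgf2, a Polycomb ring finger gene, fell from 666 to 482 counts in Tet2kd cells (76.8%). Among 50 host genes for remodellers and histone modifiers, 9 of 866 bins had higher and 13 lower use in Tet1kd cells (2.54%), and 6 and 13 in Tet2kd cells (2.19%). Bin 10 of Setdb1, a histone H3 lysine methyltransferase gene, fell from 288 to 171 counts in Tet1kd cells (61.0%, adjusted p = 3.81e-08 in the authors' deposited table) and was at 95.3% in Tet2kd cells. Bin 21 of Chd2, a remodeller gene, fell to 32.9% in Tet2kd cells (adjusted p = 6.11e-06 in the authors' deposited table), from 53.9 to 17.98 counts.

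Genes with isoforms known from ES cell fate and from epithelial or mesenchymal cells were described in the same way. In 18 host genes with cassette exons tied to ES cell fate, 9 of 312 bins had higher and 12 lower use in Tet1kd cells (6.73%), and 2 and 9 in Tet2kd cells (3.53%). Bin 2 of Zmynd8, a reader of histone marks, fell from 382 to 190.3 counts in Tet1kd cells (57.9%, adjusted p = 1.29e-12 in the authors' deposited table) and was at 98.3% in Tet2kd cells (adjusted p = 0.946). Bin 8 of Mta1, a subunit of the NuRD complex, fell in both, to 69.1% and 56.8% (adjusted p = 0.00161 and adjusted p = 2.06e-06 in the authors' deposited table). Tcf3, a gene of E proteins with alternative exons for the DNA-binding domain, had 162% at bin 24 in Tet1kd cells (adjusted p = 0.000352 in the authors' deposited table) and 117% in Tet2kd cells (adjusted p = 0.526). Bin 6 of Tcf3 fell in both, to 82.1% in Tet1kd and 69.5% in Tet2kd cells (adjusted p = 0.0286 and adjusted p = 1.57e-06 in the authors' deposited table). Bin 35 of Tpm1, a tropomyosin gene, fell from 115 to 25.5 counts in Tet1kd cells (44.3%), where the gene fell by 1.00 on the log2 scale. These bins were not matched to the known cassette exons, because the exon tables carry no coordinates.

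In 24 host genes with epithelial or mesenchymal isoforms, 5 of 342 bins had higher and 6 lower use in Tet1kd cells (3.22%), and 1 and 6 in Tet2kd cells (2.05%). Bin 15 of Plekha1, an adaptor gene, rose from 34.3 to 88.6 counts in Tet1kd cells (242%, adjusted p = 2.23e-06 in the authors' deposited table). Bin 19 of Magi1, a scaffold of cell junctions, fell in both knockdowns, to 39.7% and 53.4% (adjusted p = 0.0067 and adjusted p = 4.92e-06 in the authors' deposited table), and its gene fell by 1.54 on the log2 scale in Tet1kd cells. Bin 51 of Arhgef11, a guanine nucleotide exchange factor gene, rose in both, to 155% and 139.7%, and lies next to the 3′ end. Among 14 host genes of the pluripotency network, 3 of 114 bins had higher and 2 lower use in Tet1kd cells (4.39%), and 2 and 2 in Tet2kd cells (3.51%). That list holds Tcf3, the gene of E proteins described above, which the list of cassette exons also holds. The calls at its bins 24 and 6 in Tet1kd cells, and at bin 6 in Tet2kd cells, are therefore counted in both lists. Bin 5 of Lin28b, a let-7 binding protein gene, rose from 46.6 to 95.6 counts in Tet1kd cells (211%, adjusted p = 1.58e-06 in the authors' deposited table).

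DNA replication, the cell cycle and DNA repair were covered by a pair of lists. Among 53 host genes of replication and the cell cycle, 10 of 690 bins had higher and 20 lower use in Tet1kd cells (4.35%), and 7 and 19 in Tet2kd cells (3.77%). Among 40 host genes of repair, 4 of 613 had higher and 5 lower use in Tet1kd cells (1.47%), and 6 and 8 in Tet2kd cells (2.28%). The difference between the lists was not tested. Pola1, the catalytic partner of Pola2, had a fall at bin 24, from 83.7 to 22.1 counts in Tet1kd cells (22.1%) and from 77.3 to 27.2 in Tet2kd cells (33.5%), with adjusted p = 0.000203 and adjusted p = 6.1e-05 in the authors' deposited table. Bin 8 of Rbl1, a retinoblastoma-like gene, rose from 23.2 to 74.1 counts in Tet1kd cells (241%, adjusted p = 3.78e-05 in the authors' deposited table). Bin 10 of Lig3, a DNA ligase gene with nuclear and mitochondrial products, fell in both, to 72.1% and 56.0% (adjusted p = 0.00395 and adjusted p = 2.19e-09 in the authors' deposited table). Bin 24 of Fancd2, a gene of crosslink repair, fell from 115 to 53.0 counts in Tet2kd cells (45.7%), and was at 84.9% in Tet1kd cells (adjusted p = 0.636 in the authors' deposited table).

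The remaining lists covered signalling, the cytoskeleton, membrane traffic and metabolism. Kinase signalling had 8 higher and 17 lower of 857 bins in Tet1kd cells (2.92%) and 8 and 13 in Tet2kd cells (2.45%). Csnk1d and Csnk1e, the genes of casein kinase 1 delta and epsilon, were among them: bin 11 of Csnk1d fell to 43.2% in Tet1kd cells and was at 109% in Tet2kd cells, while bin 9 of Csnk1e fell in both, to 55.1% and 56.8%. Cytoskeleton, adhesion and motor genes had 10 higher and 11 lower of 740 bins in Tet1kd cells (2.84%) and 8 and 17 of 767 in Tet2kd cells (3.26%). Bin 4 of Wasl, an actin nucleation gene, fell in both, to 60.9% and 54.9% (adjusted p = 0.00297 and adjusted p = 1.22e-05 in the authors' deposited table). In Vasp, another actin regulator, bin 4 fell in Tet1kd cells (44.3%) and was at 125% in Tet2kd cells (adjusted p = 0.563 in the authors' deposited table). Bin 13 of Vasp fell in Tet2kd cells (33.8%, adjusted p = 8.22e-11 in the authors' deposited table) and was at 67.5% in Tet1kd cells (adjusted p = 0.657). Membrane traffic genes had 10 and 12 of 865 bins in Tet1kd (2.54%) and 7 and 17 in Tet2kd cells (2.77%), and bin 9 of Exoc2, an exocyst gene, fell to 44.4% and 49.7%. Metabolic enzyme genes had 7 and 13 of 567 bins in Tet1kd (3.53%) and 6 and 17 in Tet2kd cells (4.06%).

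The feeder and ES cell marker lists were small among the host genes. In 8 feeder marker genes 0 of 54 tested bins passed in Tet1kd cells and 4 passed in Tet2kd cells, 1 higher and 3 lower. One of the latter was bin 53 of the collagen gene Col3a1, from 222 to 87.5 counts (58.4%, adjusted p = 2.42e-09 in the authors' deposited table), near the 3′ end of a gene that fell by 0.56 on the log2 scale. In the 1 ES cell marker among the host genes, 0 of 2 tested bins passed in either comparison.

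Change of use was compared with change of the gene's level. In Tet1kd cells 1321 host genes had a higher and 1450 a lower level in the authors' deposited table, or 23.4% and 25.7% of them, against 15.2% and 15.3% of all genes tested. In Tet2kd cells 336 and 381 did (5.95% and 6.75%), against 3.85% and 3.29% of all genes tested, while a second test in the authors' deposited table called 2166 host genes in Tet2kd cells, against these 717. The host genes were chosen by their level in parental cells, and the part of depth in these shares was not tested. Inner bins were called in 2.89% of those in genes that rose, 3.35% in genes that fell and 2.90% in genes past neither limit in Tet1kd cells. In Tet2kd cells the shares were 2.29%, 5.80% and 2.89%, so that calls were most frequent in genes whose level fell, with 79 bins higher and 126 lower of 3536. The difference between these shares was not tested. In Tet1kd cells 830 of the 1650 changed bins, and in Tet2kd cells 1403 of the 1675, lay in genes with no called change of level.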

How the data were processed

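The submitters' processing notes name TopHat2 2.0.0, SAMtools 0.1.18 and DESeq (without a version), and the builds mm9 and NCBIM37. Per the file headers, the authors deposited for each knockdown a gene table with the mean signal (normalized count) of each group, its ratio (fold), log2 value and p-values from 2 tests. They also deposited an exon table from DEXSeq (version not given in the sources used here) with the mean signal of each bin, a log2 ratio of use, a dispersion score and a p-value with its adjusted value. The log2 ratio was turned to knockdown over parental. Benjamini-Hochberg adjustment of the deposited p-values gave the deposited adjusted values.

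The tables hold group means and no counts per library, so the planned edgeR and DESeq2 tests were not run and the authors' deposited adjusted p-values, at 0.05, were the test. Bins of 905 merged genes, 24996 in all, stayed out by the rule. The factor of 2 on the log2 ratio of use was the one at which the parental bin means of the tables matched best (median absolute deviation 0.00963, against 0.0469 with the ratio as deposited). Position was read from gene strand in GENCODE M21 (GRCm38), which matched 5625 of 5643 host genes and gave 55633 bins a place. No coordinates were used. Named bins are the best bin of the first 10 genes by adjusted p in each direction, up to 4 genes per list and comparison, the longest runs of adjacent bins in 3 genes per comparison, and the bins and genes next to each limit of the rule; a few that this rule names are not reported here. The members, the 16 lists and this rule were chosen with earlier results of these data known. The calculations used Python 3.11.15, pandas 2.3.3 and numpy 2.4.6 and were tested on simulated data. Alternatives were other thresholds, bin count minimums, gene windows and sets of genes or positions.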

Additional observations from a re-analysis of the deposited data

How the results depend on the processing

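No paired analysis was possible because the deposited tables hold group means and their columns carry no replicate numbers, and for the same reason leaving out single replicates could not be run. Counts are given as changed inner bins, higher and lower, for Tet1kd and then Tet2kd. At an adjusted p of 0.01 they were 745 (296 and 449) and 772 (213 and 559), and at 0.1 they were 2684 (1078 and 1606) and 2671 (964 and 1707). With a mean bin count of at least 100 they were 838 (384 and 454) and 955 (386 and 569). With a deposited log2 ratio of at least 0.5 in size they were 306 (62 and 244) and 258 (35 and 223). These settings keep fewer or more bins by construction. Without host genes whose own level changed the Tet1kd counts were 830 (325 and 505), and without the 3′-most of 10 position classes, an alternative chosen after seeing the data, 377 bins had higher use in Tet2kd cells. Host genes with a changed bin numbered 587 and 608 at 0.01, 646 and 736 with a mean of at least 100, and 270 and 240 with a log2 ratio of at least 0.5. The second gene test of the authors called 2166 host genes changed in level in Tet2kd cells, and an adjusted p of 0.01 left 457, against 717; the cause was not tested. The other 54 alternatives for these counts and for the difference by position stayed within 1.5 times or kept their direction. The named results numbered 163, each a bin in 1 comparison. When p-values were adjusted over bins with a mean of at least 20, all 163 stayed past the threshold. This could not test them, because they had been chosen among bins past the threshold and this adjustment is looser. It called 2275 inner bins against 1650 in Tet1kd cells, and 2317 against 1675 in Tet2kd cells. At an adjusted p of 0.01, 145 of the 163 stayed. Depth per library is unknown, and the median dispersion was largest in the shallowest of 4 classes of mean bin count.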
